A study of Physcomitrium patens with 12 samples.

Results

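PINA, PINB and PINC are the canonical PIN genes of the moss Physcomitrium patens, and they were followed here in its male and female sex organs. They are 3 of the 32926 genes in a table of read counts, taken as the rows Pp3c23_10200 for PINA, Pp3c24_2970 for PINB and Pp3c10_24880 for PINC. These pairings of identifier and name are locus assignments from outside the data, and neither the deposited files nor the reference gene table, in which 0 of the identifiers matched, records them. PIN proteins sit in plant membranes and carry the hormone auxin out of the cell, so that their placement steers auxin flow through a tissue. Canonical PINs have a long hydrophilic loop in the middle of the protein and act at the plasma membrane, and in moss they are known for shaping protonemal filaments, leaves and the sporophyte. Antheridia release the swimming sperm, and each archegonium holds an egg.

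RNA was sequenced from mature gametangia of the strain Gransden on day 18 of sporophyte induction, with 8 organs pooled in each library. The 4 groups of 3 libraries were antheridia of the PpPINC mutant line pinC#29 (called pinC below), antheridia of wild type, archegonia of pinC and archegonia of wild type. Only pinC#29 stood for the mutant, and what the mutation does cannot be told apart from other features of that line. Because the identifiers are not paired with names, the labelled organs could not be checked against defining markers. Total counts were between 19038033 and 39833129 per library, and between 19088 and 24802 genes had at least 1 count. The libraries with the fewest detected genes were pinC antheridia 2 with 19088, pinC archegonia 3 with 19803 and pinC antheridia 3 with 20359. Levels are given as CPM, which are counts scaled to a common library total (per 1000000) with TMM factors. Lengths of the counted gene models were not used, so levels are compared for 1 gene between libraries and never between genes. In whole organs, fewer cells of a type and less RNA per cell cannot be told apart.

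PINC, the gene named in the genotype, was nearly without reads in 5 of the 6 pinC libraries and was present in the library labelled pinC antheridia 1. In archegonia PINC had 3, 2 and 0 counts in the 3 pinC libraries, against 94, 38 and 56 counts in wild type. That is 0.139, 0.078 and 0 CPM in pinC archegonia, against 4.22, 1.15 and 2.14 CPM in wild type archegonia. Every pinC archegonium library was below every wild type archegonium library, by a wide margin. In antheridia PINC had 66, 0 and 0 counts in pinC, against 66, 39 and 165 counts in wild type. That is 2.93, 0 and 0 CPM in pinC antheridia, against 2.92, 1.51 and 6.68 CPM in wild type antheridia. The pinC antheridia thus split into 2 libraries with no count and 1 inside the wild type range. The counting interval of the library labelled pinC antheridia 1 (95%, exact Poisson) was 2.27 to 3.73 CPM. The same interval reached up to 0.174 CPM in pinC antheridia 2 and up to 0.108 CPM in pinC antheridia 3, which had no count. Intervals and limits of this kind cover at most counting error, not the spread between replicates. Because reads copied by PCR are not separate molecules, they can be too narrow even for that.

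**Figure D1:**
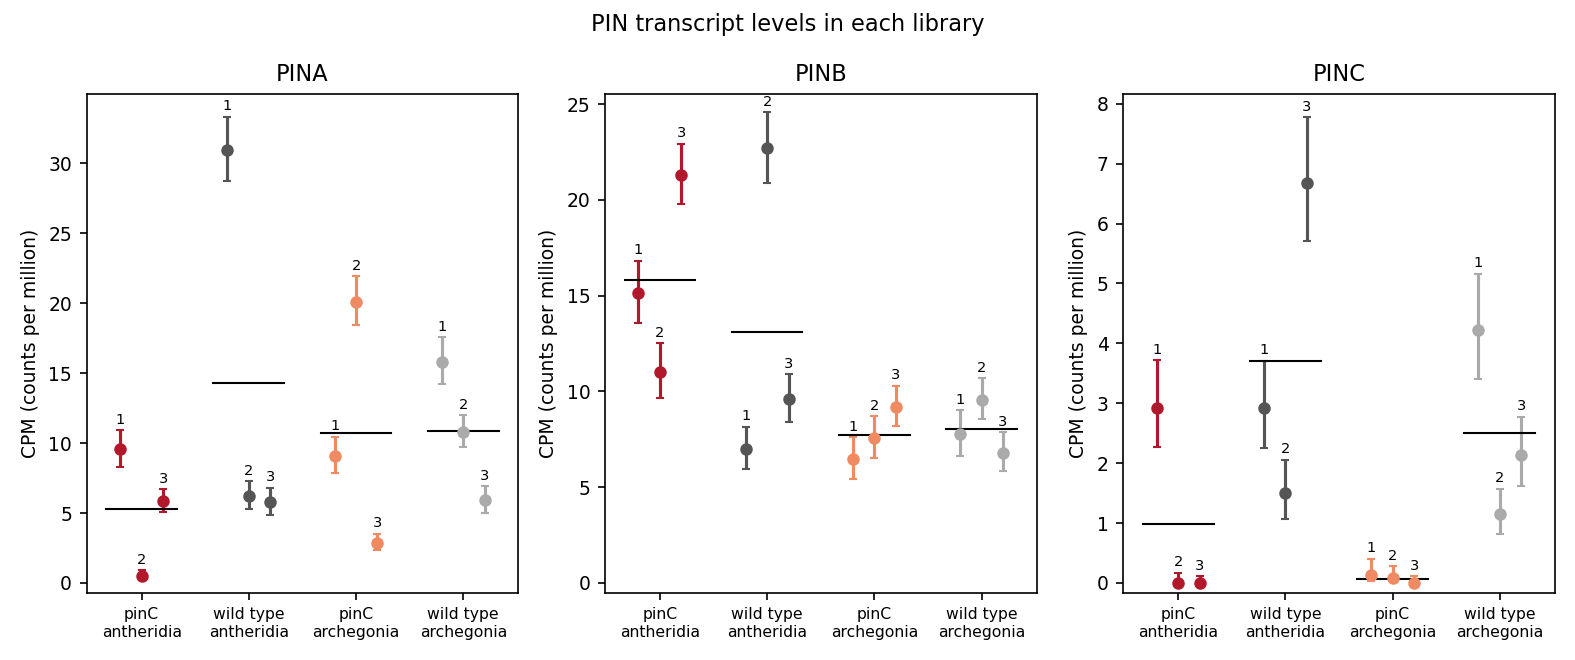
CPM of PINA, PINB and PINC in each of the 12 libraries, one panel per gene with its own linear axis. Points are libraries with their replicate number, bars are 95% Poisson intervals for counting error, and horizontal lines are means of 3 libraries. PINC was at 0 to 0.139 CPM in 5 pinC libraries and at 2.93 CPM in the library labelled pinC antheridia 1, while PINA and PINB overlapped between pinC and wild type in both organs.

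PINC averaged 0.0724 ± 0.0698 CPM in pinC archegonia and 2.50 ± 1.57 CPM in wild type archegonia (SD, n = 3 each). With the counts of each group pooled, wild type archegonia were 36.6-fold above pinC archegonia, with a counting interval of 15.4 to 114.1. The quasi-likelihood test of edgeR over all 12 libraries gave a log2 difference, pinC minus wild type, of -5.17 ± 1.78 (SE) with an edgeR adjusted p of 1 over 22792 genes tested. Its unadjusted edgeR p of 0.0114 ranked 30 among those 22792 genes. In that comparison edgeR called 0% of the genes tested, 257 of which had an unadjusted p under 0.05, and in the fit of the archegonium libraries alone the unadjusted edgeR p of PINC was 0.000631 and the adjusted p 0.995. Non-overlap by itself was common, since in 5.98% of the genes tested every pinC archegonium library was below every wild type archegonium library. The near absence of reads was rarer. Of 17913 genes with at least 30 counts in each wild type archegonium library, 2 (0.0112%) had at most 3 counts in each pinC archegonium library. These were PINC and Pp3c6_26100, a limit chosen after the PINC counts were seen. The set has no upper limit on counts, and PINC was a low member of it, at 38 to 94 counts in wild type archegonia. The share among genes at that level was not measured. The authors' deposited table gave PINC a log2 fold change of -1.61 with an unadjusted p of 0.000132 in archegonia, and listed no adjusted p for it, where 0.0665% of the genes with one were called. DESeq2 run here over all 12 libraries gave -5.1 for that comparison. The deposited fold changes of PINC between genotypes are therefore not read on the same scale as those fitted here. Why they are smaller was not tested.

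In antheridia PINC averaged 0.976 ± 1.69 CPM in pinC and 3.70 ± 2.67 CPM in wild type (SD, n = 3 each), a log2 difference of -1.99 ± 1.19 (SE; edgeR adjusted p = 0.671), and the groups overlapped. edgeR called 0.0132% of the genes tested in that comparison. Without the library labelled pinC antheridia 1, pinC antheridia had no PINC count, and wild type was at least 68.0-fold higher against a floor of 3 counts over the remaining pair of libraries. The edgeR adjusted p was then 0.0789. Of 17927 genes with at least 30 counts in each wild type antheridium library, 284 (1.58%) had no count in pinC antheridia 2 and 3, which had few detected genes. That set has no upper limit on counts. PINC was above only 13.7% to 30.3% of the genes tested in the wild type antheridium libraries. The share among genes at the level of PINC was not measured. The part of that low detection in the PINC counts was not tested. The authors' deposited table put PINC at a log2 fold change of -0.391 in antheridia, where its adjusted p was 0.999 and 0.0715% of the genes in that table were called. DESeq2 run here over all 12 libraries gave -1.88.

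Over both organs PINC was lower in pinC by 3.83 on the log2 CPM scale (prior count 2), and an exact permutation test of the genotype labels within each organ gave p = 0.015, two-sided, where the 400 regroupings allow 0.005 at least. It was 1 of 6 such tests, not adjusted for one another, and with any single library left out the exact p stayed between 0.005 and 0.025. With pinC antheridia 2 and 3 and pinC archegonia 3 all left out, the difference was -1.86 with an exact permutation p of 0.125. Those are the 3 libraries with a PINC count of 0, and also the 3 with the fewest detected genes. The only pinC antheridium library then left is the one with 66 counts, so the removal raises the pinC level by itself. What part low detection had in the counts of 0 was not tested. The edgeR fit gave -3.58 ± 1.08 (SE) over both organs, with an adjusted p of 0.908 and 0% of the genes tested called, 1130 of which had an unadjusted p under 0.05. The authors' deposited table of all pinC over all wild type put PINC at a log2 fold change of -0.752, with an unadjusted p of 0.0841 and no adjusted p. DESeq2 run here over both organs gave -3.50. Without the library labelled pinC antheridia 1 the edgeR adjusted p of PINC over both organs was 0.0462, past the threshold of 0.05. That fit called 53 genes, against 0 with all libraries. The library left out has the highest PINC count in pinC, so its removal lowers the pinC level by itself. This p is therefore no separate support for the PINC difference. No other single library took PINC past the threshold when left out.

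The library labelled pinC antheridia 1 was set beside a pair of genes that separate the genotypes, both chosen after their values were seen. Pp3c6_26100 had 0, 102 and 1 counts in pinC antheridia and 0 in each of the 3 pinC archegonium libraries, against 680 to 1581 counts in the 6 wild type libraries. Pp3c11_4360 had 33, 133 and 90 counts in pinC antheridia and 154, 241 and 220 counts in pinC archegonia, against 0, 0 and 0 counts in wild type antheridia and 0, 0 and 4 counts in wild type archegonia. For both genes the library labelled pinC antheridia 1 was on the side of the other pinC libraries, whereas for PINC it was on the side of wild type. The values of that library were known when the pair was chosen, so its side for these genes is no test of its label. The size of the PINC difference in antheridia depended on that library, while its negative sign was the same with and without it.

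The identifiers next to PINC were read as a check of the surrounding locus. The nearest on either side in the count table were Pp3c10_24760 and Pp3c10_24871 below and Pp3c10_24900 and Pp3c10_24920 above, by number and without coordinates. Pp3c10_24900 had 1111, 532 and 804 counts in pinC antheridia, against 1524, 847 and 1424 in wild type antheridia. In archegonia it had 1363, 1581 and 2165 counts in pinC, against 1443, 1675 and 1646 in wild type. Pp3c10_24760 had 257 to 598 counts in the 6 pinC libraries and 178 to 626 counts in the 6 wild type libraries. Neither gene showed a loss of reads like that of PINC, and both overlapped between the genotypes in each organ. For Pp3c10_24900 the log2 difference, pinC minus wild type, was -0.69 ± 0.37 in antheridia (SE; edgeR adjusted p = 0.642) and 0.11 ± 0.37 in archegonia (SE). For Pp3c10_24760 it was 0.22 ± 0.49 in antheridia and -0.42 ± 0.49 in archegonia (SE). Over both organs the log2 difference, pinC minus wild type, was -0.10 ± 0.34 for Pp3c10_24760 and -0.29 ± 0.26 for Pp3c10_24900 (SE; edgeR adjusted p = 1 for each).

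Pp3c10_24871 varied more, with 325, 1 and 483 counts in pinC antheridia, against 116, 258 and 216 in wild type antheridia. Its archegonium libraries had 9, 18 and 99 counts in pinC, against 9, 64 and 82 in wild type, and the log2 difference over both organs was -0.036 ± 0.79 (SE; edgeR adjusted p = 1). Pp3c10_24920 was below the count needed for testing. It had 23, 0 and 0 counts in pinC antheridia, against 0, 3 and 0 in wild type antheridia, and 0, 8 and 0 counts in pinC archegonia, against 12, 5 and 3 in wild type archegonia. The library labelled pinC antheridia 1 held the highest count of Pp3c10_24920 among the 12 libraries. Without the annotation, reads of overlapping genes could not be told apart at any of these identifiers.

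**Figure D2:**
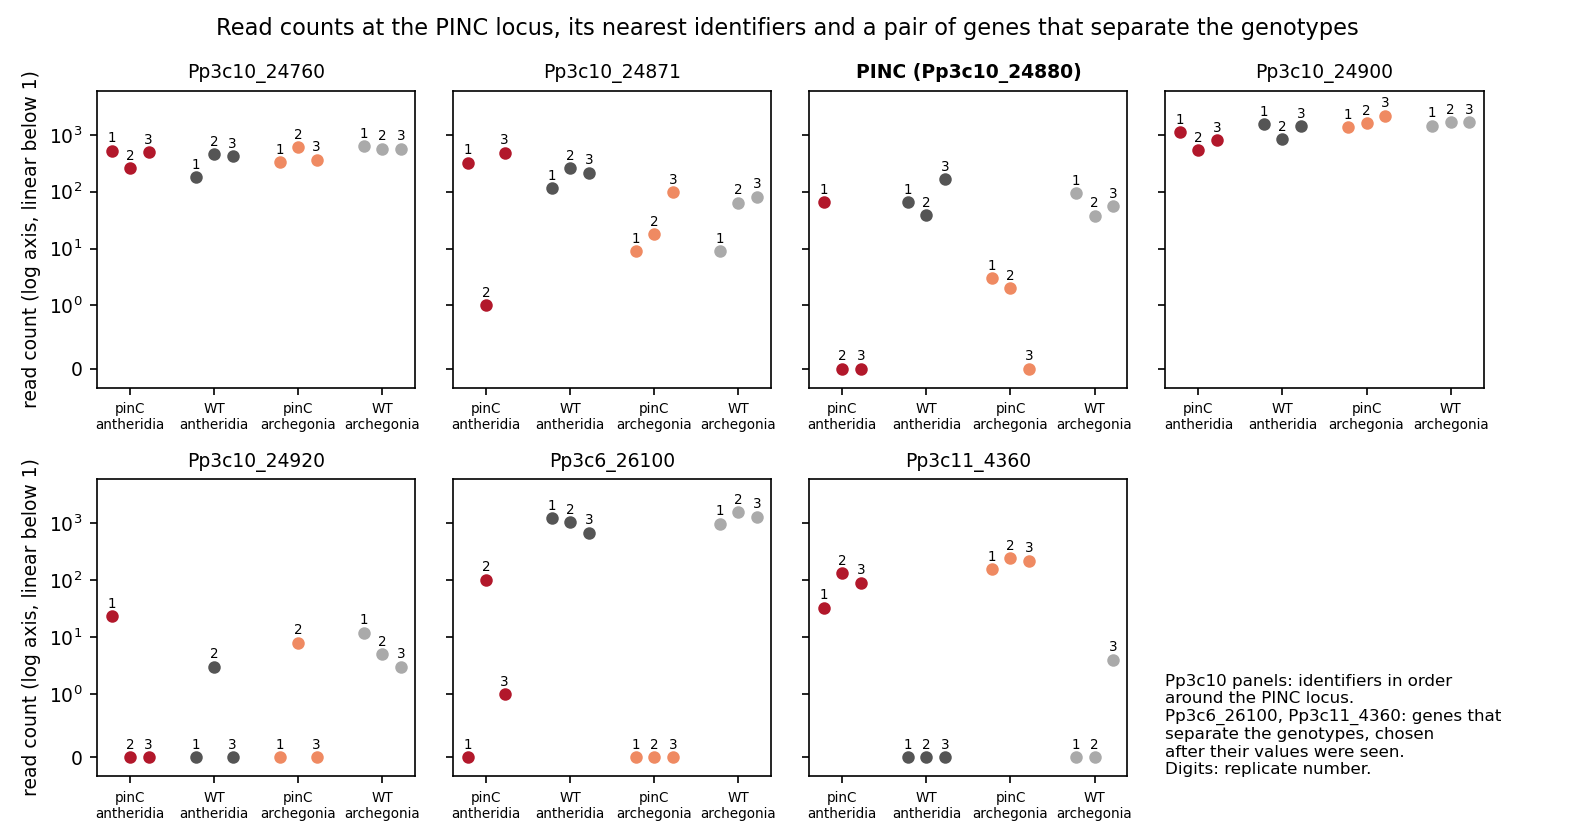
Read counts on a log axis that is linear below 1, for PINC, the nearest identifiers on either side and a pair of genes that separate the genotypes, in each library with its replicate number. Pp3c10_24760 and Pp3c10_24900 kept at least 178 counts in every library, while PINC had 0 to 3 counts in 5 pinC libraries and 66 in the library labelled pinC antheridia 1, where Pp3c6_26100 had 0 and Pp3c11_4360 had 33.

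PINA differed between pinC and wild type by less than the spread of its libraries, which was wide. PINA had 215, 11 and 199 counts in pinC antheridia, or 9.54, 0.517 and 5.85 CPM, against 700, 161 and 143 counts in wild type antheridia, or 31.0, 6.22 and 5.79 CPM. The groups overlapped. Each held 1 library far from the others, low in pinC antheridia 2 and high in wild type antheridia 1. The highest pinC antheridium library was 18.4-fold above the lowest, and the highest wild type antheridium library 5.35-fold above the lowest. The mean was 5.30 ± 4.54 CPM in pinC antheridia and 14.3 ± 14.4 CPM in wild type antheridia (SD, n = 3 each), a log2 difference of -1.42 ± 0.96 (SE; edgeR adjusted p = 0.711) with a 95% interval of -3.51 to 0.67. Without wild type antheridia 1 the difference was -0.18, and without the library labelled pinC antheridia 1 it was -2.19. Without wild type antheridia 1 the wild type mean was 6.01 CPM.

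In archegonia PINA had 196, 515 and 93 counts in pinC, or 9.10, 20.1 and 2.88 CPM, against 352, 358 and 155 counts in wild type, or 15.8, 10.8 and 5.92 CPM. The pinC libraries reached both above and below all wild type libraries. The mean was 10.7 ± 8.73 CPM in pinC archegonia and 10.8 ± 4.94 CPM in wild type archegonia (SD, n = 3 each). The log2 difference was -0.022 ± 0.94 (SE; edgeR adjusted p = 1), and its 95% interval of -2.06 to 2.01 leaves changes of up to about that size in either direction unresolved. Its sign turned under several settings. Over both organs an exact permutation test of PINA, two-sided, gave p = 0.28 at a log2 difference of -1.0, pinC minus wild type.

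PINB had the smallest spread between replicates of the 3 genes in each of the 4 groups, with a coefficient of variation of 17.8% in pinC archegonia and 17.5% in wild type archegonia. The corresponding values were 81.6% and 45.6% for PINA and 96.3% and 62.7% for PINC, whose counts are lower. PINB had 139, 194 and 297 counts in pinC archegonia, or 6.45, 7.58 and 9.19 CPM, against 173, 317 and 178 counts in wild type archegonia, or 7.77, 9.57 and 6.80 CPM. The groups overlapped almost entirely. The mean was 7.74 ± 1.38 CPM in pinC archegonia and 8.05 ± 1.41 CPM in wild type archegonia (SD, n = 3 each), a log2 difference of -0.055 ± 0.56 (SE; edgeR adjusted p = 1) with a 95% interval of -1.27 to 1.16. Under DESeq2 size factors its sign turned, at 0.0012.

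In antheridia PINB had 341, 234 and 726 counts in pinC, or 15.1, 11.0 and 21.3 CPM, against 158, 587 and 237 counts in wild type, or 6.99, 22.7 and 9.60 CPM. Wild type antheridia 2 stood above all pinC libraries and the other wild type antheridia below them. The mean was 15.8 ± 5.19 CPM in pinC antheridia and 13.1 ± 8.41 CPM in wild type antheridia (SD, n = 3 each). The log2 difference was 0.27 ± 0.55 (SE; edgeR adjusted p = 0.915), with a 95% interval of -0.92 to 1.47, and without wild type antheridia 2 it was 0.93. The sign of this difference turned without wild type antheridia 1, at -0.030, and without pinC antheridia 3, at -0.031. Over both organs the exact permutation test of PINB, two-sided, gave p = 0.58 at a log2 difference of 0.17, pinC minus wild type.

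**Figure D3:**
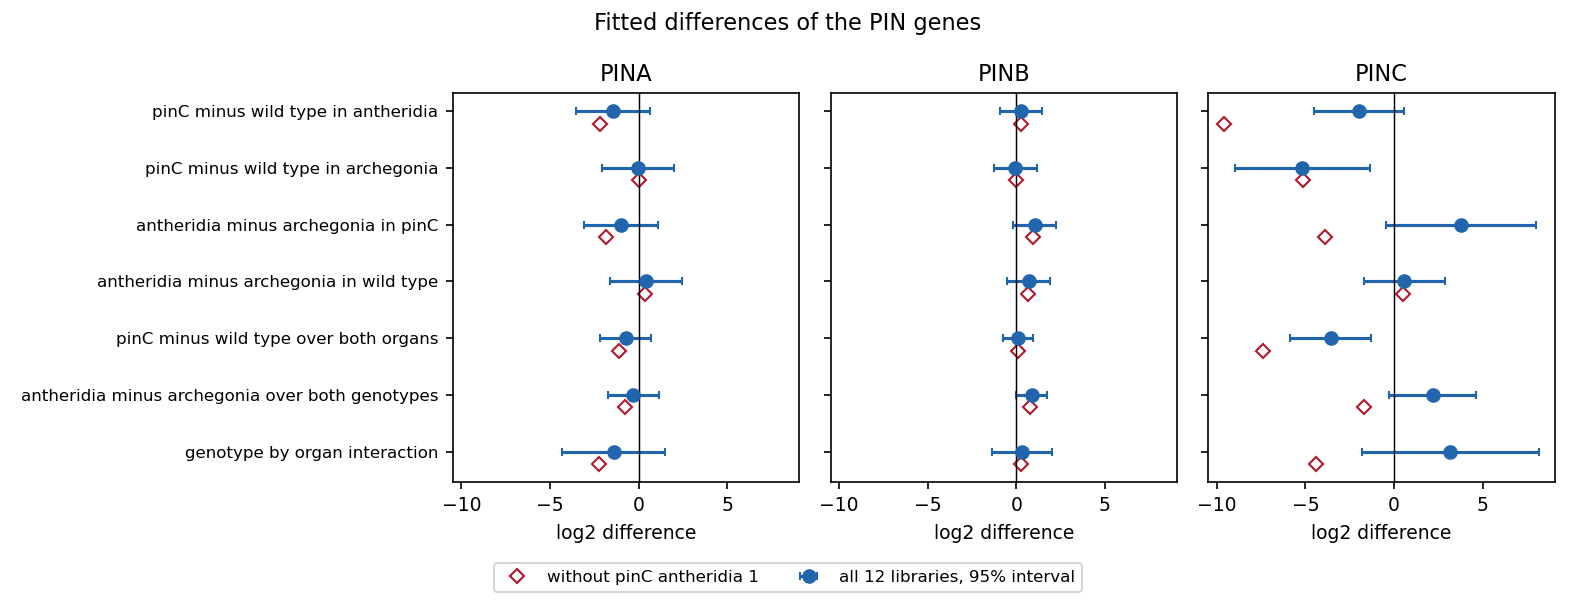
Fitted log2 differences of PINA, PINB and PINC in 7 comparisons, from the edgeR fit over 12 libraries (circles, with 95% intervals) and from the fit without the library labelled pinC antheridia 1 (diamonds). In the panel of PINC the intervals exclude 0 in archegonia (-8.98 to -1.36) and over both organs (-5.89 to -1.27) before adjustment over genes, and 5 of its diamonds lie far from their circles.

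Antheridia and archegonia were compared next, to ask in which organ each gene is higher. For PINB the antheridium mean was above the archegonium mean in both genotypes. In pinC every antheridium library of PINB, at 11.0 to 21.3 CPM, was above every archegonium library, at 6.45 to 9.19 CPM, which was true of 11% of the genes tested. The log2 difference, antheridia minus archegonia, was 1.03 ± 0.56 in pinC (SE; edgeR adjusted p = 0.333), where 8.07% of the genes tested were called. In wild type it was 0.70 ± 0.56 (SE; edgeR adjusted p = 0.641), where 2.95% were called. The wild type organs overlapped, at 6.99 to 22.7 CPM in antheridia and 6.80 to 9.57 CPM in archegonia, and without wild type antheridia 2 the difference was 0.034.

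Over both genotypes PINB was higher in antheridia, with a log2 difference of 0.87 ± 0.40 (SE; edgeR adjusted p = 0.196), where edgeR called 13.3% of the genes tested. The exact permutation test of the organ labels within each genotype, two-sided, gave p = 0.025 at a difference of 0.76 in log2 CPM. With 1 library left out that exact permutation p was between 0.005 and 0.075, and it was under 0.05 in 7 of the 12 cases. It was 0.085 with unadjusted totals. The authors' deposited table of all antheridia over all archegonia called PINB, with a log2 fold change of 0.872 and an adjusted p of 0.0387, while 14.8% of its genes were called. That table called neither PINA, at -0.115 with an adjusted p of 0.961, nor PINC, at 0.694 with an adjusted p of 0.813.

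PINA and PINC showed no organ difference that passed the threshold. For PINA the log2 difference, antheridia minus archegonia, was -1.0 ± 0.96 in pinC (SE; edgeR adjusted p = 0.644) and 0.40 ± 0.94 in wild type (SE; edgeR adjusted p = 0.91). The pinC value was -1.86 without the library labelled pinC antheridia 1 and -0.25 without pinC archegonia 2, and the wild type value turned to -0.86 without wild type antheridia 1. PINC in wild type had 39 to 165 counts in antheridia and 38 to 94 counts in archegonia, with a log2 difference of 0.59 ± 1.08 (SE; edgeR adjusted p = 0.875) and a 95% interval of -1.72 to 2.90. PINC reads were thus present at overlapping levels in both wild type organs. In pinC the PINC difference of 3.76 ± 1.98 between the organs (SE; edgeR adjusted p = 0.304) rested on the library labelled pinC antheridia 1. Without it the difference was -3.90 (edgeR adjusted p = 0.628). That value sets counts of 0 and 0 against 3, 2 and 0, so it depends on the prior count and shows no reversal.

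The interaction sets the genotype difference of antheridia against that of archegonia, and it was -1.40 ± 1.34 for PINA, 0.33 ± 0.79 for PINB and 3.18 ± 2.34 for PINC (SE; edgeR adjusted p = 0.961, 0.987 and 0.961 in this order). edgeR called 0% of the genes tested here, 961 of which had an unadjusted p under 0.05. The PINC value was -4.43 without the library labelled pinC antheridia 1 (edgeR adjusted p = 0.812), where pinC antheridia had no PINC count, so its size depends on the prior count. With 1 library left out, the PINA interaction was between -2.20 (without the library labelled pinC antheridia 1) and -0.15 (without wild type antheridia 1). That of PINB was between 0.0071 (without pinC antheridia 3) and 0.99 (without wild type antheridia 2). Across the 7 comparisons of the 3 genes, edgeR, limma-voom and DESeq2 each called 0 of 21 tests with all libraries. At an unadjusted p under 0.05 they had 3, 3 and 5, while in edgeR 11.3% of all genes tested had such a p over the 7 comparisons together.

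**Figure D4:**
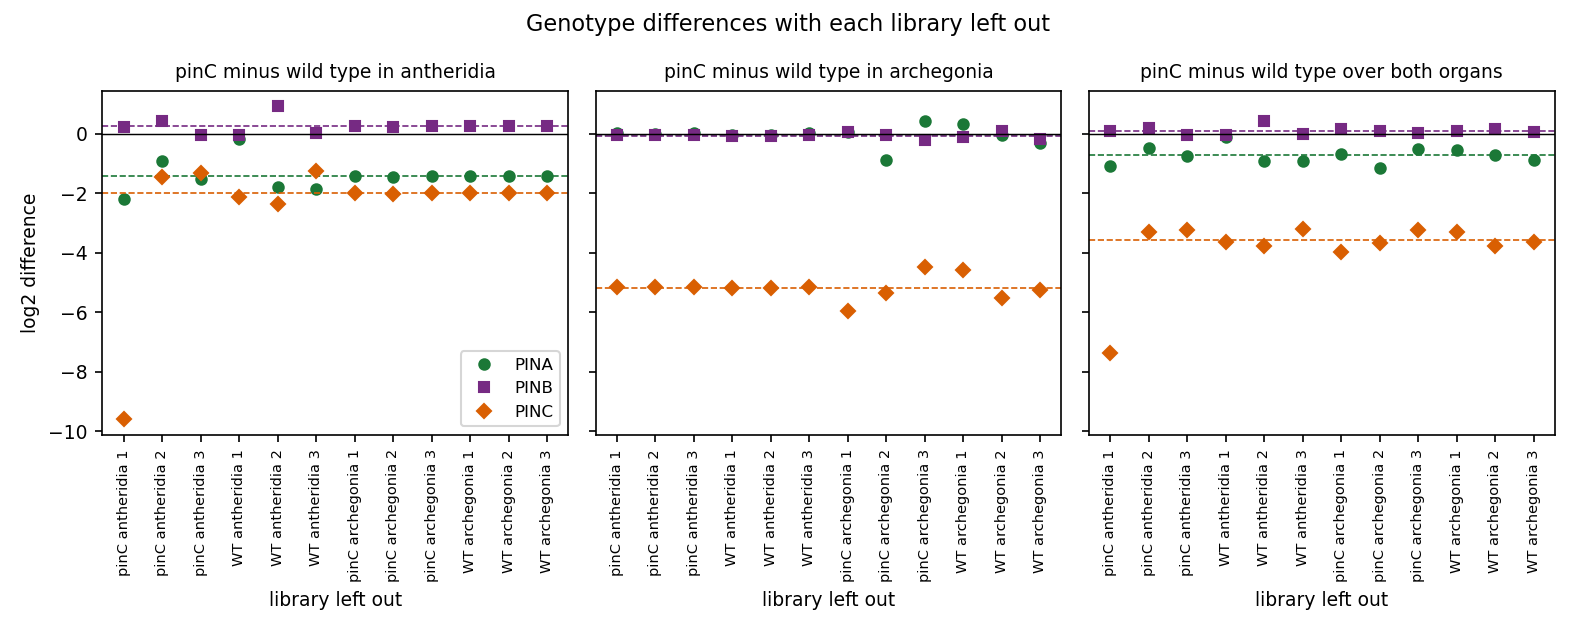
Log2 differences, pinC minus wild type, in antheridia, archegonia and both organs, with each library left out in turn (points) and with all libraries (dashed lines), for the 3 PIN genes. PINC stayed between -5.97 and -4.47 in archegonia, while in antheridia it was -9.58 without the library labelled pinC antheridia 1 and between -2.37 and -1.26 otherwise. A fitted value for a group without counts depends on the prior count and is no bound.

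The genes most like each PIN gene were found by the Pearson correlation of log2 CPM over the 12 libraries, as a description, since the highest of 22792 values is high by selection. The closest to PINA were Pp3c9_7400, with r = 0.963 and 3.15 to 35.3 CPM, and Pp3c4_14490, with r = 0.961 and 1.18 to 26.2 CPM. Both shared with PINA the lowest level in pinC antheridia 2 and the highest in wild type antheridia 1. The closest to PINB were Pp3c12_4580, with r = 0.956 and 4.08 to 18.6 CPM, and Pp3c3_29080, with r = 0.883, which had no count in 8 libraries.

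The closest to PINC was Pp3c9_16890, with r = 0.937 and at most 23 counts in a library. It had 8, 0 and 0 counts in pinC antheridia, against 9, 2 and 23 in wild type antheridia, and 2, 2 and 0 counts in pinC archegonia, against 16, 7 and 8 in wild type archegonia. Next was Pp3c22_11510, with r = 0.919. It was at 144.7, 101.1 and 92.4 CPM in pinC antheridia, against 119.1, 142.1 and 172.7 CPM in wild type antheridia, and at 91.0, 81.9 and 78.8 CPM in pinC archegonia, against 145.2, 129.0 and 134.9 CPM in wild type archegonia. In both of these genes the library labelled pinC antheridia 1 was the highest of the 6 pinC libraries and inside the wild type range, as it was for PINC. Both were picked for their likeness to PINC over these same libraries, so this is no separate evidence on that library.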

How the data were processed

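Read counts per gene of 12 libraries, in whole numbers, were deposited by the authors with 6 comparison tables. Smart-seq2, which copies full-length transcripts without marking strand or molecules, gave the cDNA, per the labels' protocols. Per the submitters' processing notes, the tools were HISAT2 2.1.0 for alignment, cutadapt 2.10 and Trim Galore 0.6.6 for trimming and DESeq2 2.11.40.6 for testing. The name of the deposited count matrix refers to feature counts and to filtering after a count over coding sequence (CDS). The counting settings, the filter rule, the genome build and the annotation remained unknown. Without a header, the authors' deposited comparison tables hold a mean normalized signal, a log2 fold change, its error, a Wald score, a p-value and an adjusted p-value for each gene.

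The members, comparisons and tests were chosen with earlier results of these data known. Groups and replicate numbers came from the sample titles, and the titles number the libraries as biological replicates without saying whether the plants were separate cultures, so p-values describe only how these libraries vary. Low counts were removed with filterByExpr, which left 22792 genes, all 3 PIN genes among them. Testing used edgeR 4.0.16 (R 4.3.3) and its quasi-likelihood test, with TMM scaling, robust estimation and the non-legacy fit of 4 group means over 12 libraries. A gene was called at an adjusted p under 0.05 (Benjamini-Hochberg over all genes tested). Standard errors are the absolute log2 difference over the square root of F. CPM uses the TMM-scaled totals of tested genes. Exact permutation tests exchanged labels within organ or genotype and were not adjusted over the 3 genes. Alternatives were limma 3.58.1 (voom with quality weights), DESeq2 1.42.0, other scaling, no filter, fits of the groups compared, the replicate number as a block, and each library left out. The named genes were the members, the 2 most correlated genes of each and the 2 nearest identifiers on each side of PINC, and 2 others, Pp3c6_26100 and Pp3c11_4360, were chosen after their values were seen. The fit was tested on simulated data. Replicates differed beyond sampling noise in every pair (chi-square per degree of freedom of 108 or more). Protein and promoter sequences of these genes were not used here.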

Additional observations from a re-analysis of the deposited data

How the results depend on the processing

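In every alternative run, the PINC difference between pinC and wild type kept its negative sign in antheridia, in archegonia and over both organs, and the PINB difference between organs kept its positive sign. The size of the PINC difference varied, from -9.58 to -0.29 in antheridia, -5.97 to -4.36 in archegonia and -7.37 to -2.355 over both organs. The values of -0.29 and -2.355 came without the 3 libraries lowest in detected genes. A further fit left out pinC antheridia 2 and 3 and pinC archegonia 3, the libraries lowest in detected genes. There the log2 difference of PINC, antheridia minus archegonia over both genotypes, was 2.58. This fit removes all 3 libraries with a PINC count of 0. It leaves 1 pinC antheridium library, that with 66 counts, which is assumed to vary like the other groups, so no call is read from it. In the exact permutation tests without those libraries PINC was -1.86 for genotype (exact p = 0.125), PINB 0.82 for organ (exact p = 0.0667) and PINA turned to 0.15 for genotype. PINB for organ was 0.58 (exact p = 0.085) with unadjusted totals. The cause was not tested. This fit and the alternatives to the permutation tests were chosen after seeing the data. For pinC minus wild type in archegonia, PINA turned to 0.016 with DESeq2 size factors in edgeR, 0.013 with limma-voom, 0.017 with DESeq2 and 0.48 without the 3 libraries, and PINB turned to 0.0012 with DESeq2 size factors in edgeR and 0.00030 with DESeq2. For the organs of wild type PINA turned to -0.52 with limma-voom.

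With the replicate number as a block no call changed and PINA in archegonia turned to 0.056. Same-numbered libraries did not pair. Of 18 such pairs 4 had a correlation of deviations over 0.1 (range -0.421 to 0.18), and 3 of 12 libraries correlated best with their own number.

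With each library left out in turn, pinC minus wild type in archegonia was -0.86 to 0.43 for PINA and -0.20 to 0.086 for PINB. In antheridia it was -0.031 to 0.93 for PINB. Over both organs it was -0.045 to 0.44 for PINB and -7.37 to -3.21 for PINC. Antheridia minus archegonia was -3.90 to 4.56 for PINC in pinC, -0.22 to 1.17 for PINC and -0.86 to 0.76 for PINA in wild type, and -1.69 to 2.57 for PINC and -0.93 to 0.045 for PINA over both genotypes. The interaction of PINC was -4.43 to 3.98. In the permutation tests, genotype gave -0.0043 to 0.42 for PINB, and organ gave 0.51 to 0.94 for PINB and -0.17 to 1.15 for PINC. At 38 to 165 PINC counts in wild type libraries, depth limits how low PINC can be read in the 3 pinC libraries with a count of 0.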

Other observations

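Across the 12 libraries PINA and PINB tended in opposite directions, a relation looked at after their values were seen. In log2 CPM Pearson's r was -0.283 (permutation p = 0.374) and Spearman's rho -0.392 (permutation p = 0.209), from 100000 resamples. It was the 1 relation between libraries given a p, apart from the ranking of genes by likeness and the check of replicate numbers. Without pinC antheridia 2 and wild type antheridia 1, the libraries farthest from the median of PINA, r was -0.282 over 10 libraries. The relation did not pass the threshold.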
